A study of Mus musculus with 8 samples.

Results

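Ccr9, Ccr7, Cxcr4, Selplg, Itga4, Itgb1 and Cd44 encode receptors and adhesion molecules that lymphoid progenitors use on the way from bone marrow to thymus. They were chosen by gene symbol, with all their probe sets on the array, and make up 7 of the 18193 genes that the array annotation names. A probe set is a group of short probes read as 1 value for a transcript, and the 7 genes had 23 probe sets in all. Expression was measured on Affymetrix arrays, 8 in number, in common lymphoid progenitors sorted from mouse bone marrow as negative for lineage markers and LY6D and positive for FLT3 and CD127. The groups were E2A-KO (n = 4), HEB-KO (n = 2) and WT (n = 2). E2A-KO cells lack the E proteins made from Tcf3, and HEB-KO cells lack the E protein made from Tcf12. All were C57bl/6 mice of 10 to 13 weeks, and no treatment is named for any group. Each array held cells pooled from several marrows in a sort, with at least 2 sorts per genotype, so the p-values measure the spread between pools and not between mice. Some of the 4 E2A-KO arrays may share a sort, which the labels do not settle, and the spread among such arrays would be partly technical. The labels do not say how the alleles were made or whether the deletion is restricted to some cells.

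Progenitors that seed the thymus leave the blood in steps. P-selectin glycoprotein ligand 1, the product of Selplg, tethers the cell to selectins on the vessel wall. Chemokine receptors then sense ligands of the thymus, and integrins hold the cell firmly. CCR9 answers to CCL25 and CCR7 to CCL19 and CCL21, and mouse progenitors that lack both enter the thymus poorly. CXCR4 answers to CXCL12, which also keeps progenitors in the marrow niche. The products of Itga4 and Itgb1 pair to form VLA-4, which binds VCAM-1 and fibronectin, and CD44 binds hyaluronan. E proteins bind DNA at E-boxes, short motifs of the form CANNTG.

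Each targeted gene read lowest where it was deleted, and Tcf3 passed the test there (log2 difference -3.89 in E2A-KO against WT, limma adjusted p = 4.26e-04), while Tcf12 did not (-2.01 in HEB-KO against WT, limma adjusted p = 0.3280). At its brightest probe set Tcf3 read 3.71 to 4.28 on the log2 intensity scale in E2A-KO, 8.57 and 8.44 in HEB-KO, and 7.76 and 7.98 in WT. Tcf12 read 8.52 to 8.64 in E2A-KO, 7.10 and 6.49 in HEB-KO, and 8.85 and 8.76 in WT. The median over all probe sets of an array lay between 3.82 and 3.95 in log2 intensity, and no detection calls come with the values, so a reading near or below this level may be background. Ly6d, the marker excluded by the sort, read 6.75, 4.48, 4.26 and 6.88 on E2A-KO arrays 1 to 4, 7.52 and 3.63 in HEB-KO, and 3.53 and 7.83 in WT. Its level thus differed more within each genotype than between the genotypes.

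Ccr9 fell in E2A-KO progenitors to readings near or below the array median, and it was the largest fall among the 11957 genes tested. Its brightest probe set, 1427419_x_at, read 4.06, 2.74, 3.97 and 3.77 (log2 intensity) on the E2A-KO arrays, against 8.63 and 9.19 on the WT arrays. Every E2A-KO array lay far below both WT arrays. Within their own arrays these readings stood between the 17.1 and the 52.7 percentile of all probe sets in E2A-KO, and between the 93.7 and the 95.4 percentile in WT. The log2 difference was -5.28 (SE 0.42, 95% interval -6.23 to -4.33, limma adjusted p = 0.0033), 38.8-fold lower. A second probe set, 1421920_a_at, read 2.92, 2.74, 2.92 and 3.06 in E2A-KO, against 6.00 and 6.39 in WT. All 4 E2A-KO values were below the array median, so this probe set passed the filter on low values only through the HEB-KO and WT arrays, where it was high. Its difference of -3.29 (SE 0.22, limma adjusted p = 0.0028 over 25063 probe sets) is therefore given as a description and not as a further test of the fall. As the E2A-KO readings may be background, both folds may understate the fall. The suffix of the brightest probe set marks probes that may also bind other transcripts, and the second probe set carries no such mark. In these sorted pools, fewer cells with Ccr9 and less Ccr9 RNA per cell cannot be told apart.

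**Figure D1:**
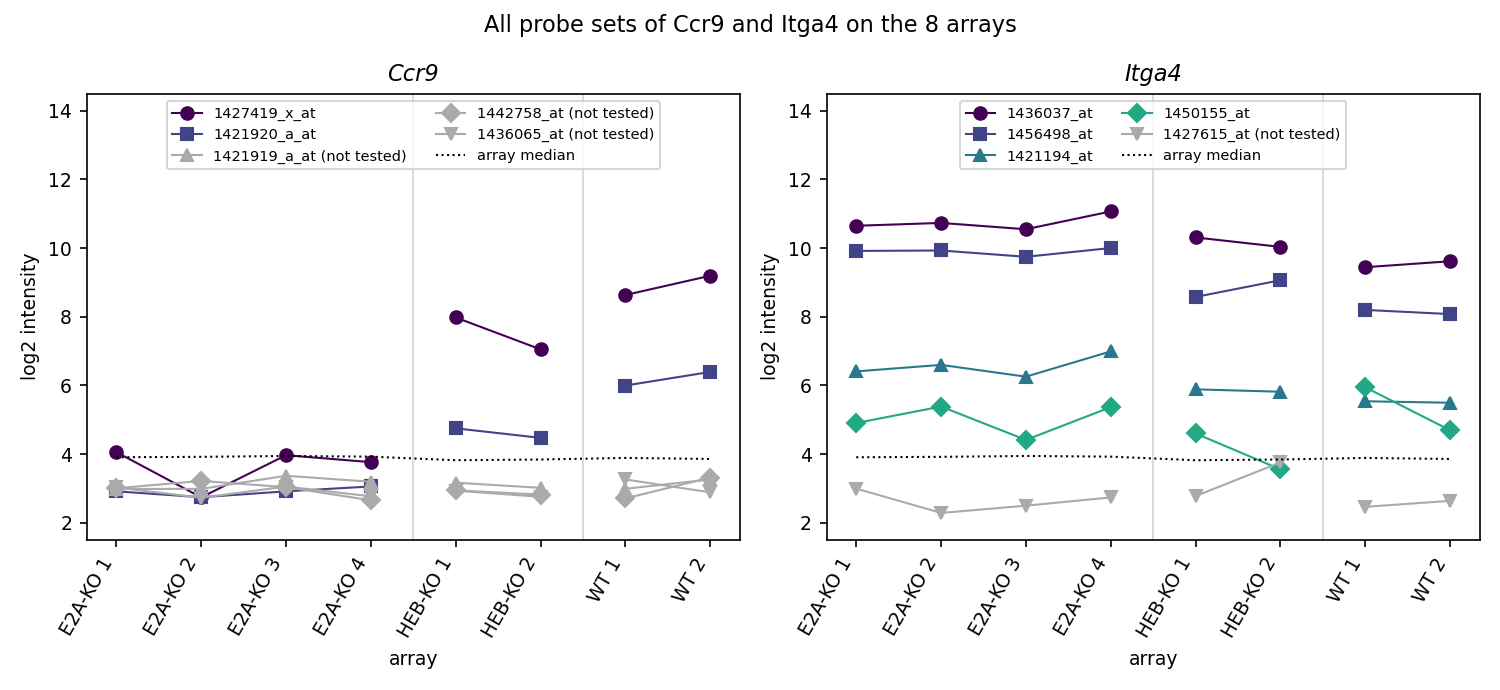
Log2 intensity (y axis) of every probe set of Ccr9 (left) and Itga4 (right) on the 8 arrays (x axis), with probe sets that failed the filter on low values in grey and the array medians dotted. The 2 tested Ccr9 probe sets lie near or below the array median on all 4 E2A-KO arrays and above it on the HEB-KO and WT arrays, whereas 3 of the 4 tested Itga4 probe sets are higher on every E2A-KO array than on either WT array.

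The other probe sets of Ccr9, 1421919_a_at, 1442758_at and 1436065_at, lay below the array median on all 8 arrays and were not tested. Their means were 3.13, 2.98 and 2.90 in E2A-KO, 3.09, 2.88 and 2.85 in HEB-KO, and 3.13, 3.01 and 3.07 in WT. Their readings overlapped between all genotypes. Over the 8 arrays the 2 tested probe sets had a Pearson correlation of 0.970, a description only, since arrays of a genotype share it.

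The window of 250 bases before the annotated start of Ccr9 is shown because the factors lost here bind E-boxes (RefSeq, GRCm38.p6, chr9:123766961-123767210, plus strand, CANNTG matches in capitals). That of Itga4 is shown beside it because its difference in E2A-KO had the opposite sign, a choice made after its values were seen (GRCm38.p6, chr2:79255176-79255425, plus strand).
Ccr9: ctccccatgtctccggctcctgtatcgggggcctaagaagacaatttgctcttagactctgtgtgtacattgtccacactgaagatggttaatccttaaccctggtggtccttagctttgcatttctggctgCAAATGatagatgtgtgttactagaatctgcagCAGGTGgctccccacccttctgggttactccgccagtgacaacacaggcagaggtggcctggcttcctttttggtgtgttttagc
Itga4: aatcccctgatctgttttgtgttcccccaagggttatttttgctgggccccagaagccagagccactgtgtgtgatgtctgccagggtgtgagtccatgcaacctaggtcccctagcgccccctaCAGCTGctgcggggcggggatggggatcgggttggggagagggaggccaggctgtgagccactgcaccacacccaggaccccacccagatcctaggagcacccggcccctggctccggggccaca
The Ccr9 window held 2 matches to the E-box form. One, CAAATG, began 118 bases before the start, and the other, CAGGTG, began 85 bases before it. The Itga4 window held 1, with the letters CAGCTG, which began 125 bases before the start. The general form is its own reverse complement, so it was found on both strands at once, whereas CAGGTG becomes CACCTG on the opposite strand. Of 32851 promoter windows of this length, 66.2% held at least 1 CANNTG, 17.2% a CACCTG or CAGGTG and 13.0% a CAGCTG, the last 2 being counted within CANNTG as well. The windows of Cxcr4, Itgb1 and Cd44 held 0 matches each. No window was available for Ccr7 or Selplg, so their matches are not known. Binding was not measured here, and a match is a description of the letters only.

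In HEB-KO progenitors Ccr9 stood between the other genotypes. The brightest probe set read 7.98 and 7.05 in HEB-KO, against 8.63 and 9.19 in WT, and the second 4.75 and 4.47 against 6.00 and 6.39. At each, both HEB-KO arrays were below both WT arrays. The log2 differences from WT were -1.40 (SE 0.48, limma adjusted p = 1) and -1.58 (SE 0.26, unadjusted p = 2.11e-04, limma adjusted p = 0.9998 over all probe sets), so neither passed the test. The interval for the second ran from -2.17 to -0.99. With 2 arrays in each of these genotypes the size stays uncertain, and at the brightest probe set it was -0.93 without HEB-KO 2 and -1.86 without HEB-KO 1.

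Against HEB-KO, Ccr9 was lower in E2A-KO by 3.88 on the log2 scale at its brightest probe set (SE 0.42, 14.7-fold, limma adjusted p = 0.0372 over genes). The second probe set had a difference of -1.70 (SE 0.22). Over all probe sets the limma adjusted p was 0.0655 at either probe set, short of the threshold that 0.00399% of probe sets (1 of 25063, lower) passed. The actin probe sets, whose 3' minus 5' log2 difference grows as RNA or its amplified product shortens, read 3.86 to 4.78 in E2A-KO, 3.37 and 3.58 in HEB-KO, and 4.45 and 3.84 in WT. Both HEB-KO arrays were thus below all others, and the part of this in the Ccr9 difference was not tested. The call over genes was also lost without HEB-KO 1 (-3.42, limma adjusted p = 0.3050), HEB-KO 2 (-4.35, adjusted p = 0.1323), E2A-KO 1 (-4.02, adjusted p = 0.0734) or E2A-KO 4 (-3.93, adjusted p = 0.0607). The order of Ccr9 levels was E2A-KO, HEB-KO, WT from low to high, and of the neighbours HEB-KO and WT did not pass a test of their difference.

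The call of Ccr9 in E2A-KO against WT was lost when WT 2 was left out, a fit with only 1 WT array. The log2 difference was -5.00 without WT 2 and -5.56 without WT 1. The hybridization controls, RNAs added to every array, averaged a log2 intensity of 11.32 to 12.51 in E2A-KO, 10.11 and 11.42 in HEB-KO, and 11.23 and 10.07 in WT. With this level as a covariate the difference was -4.78 (SE 0.58, limma adjusted p = 0.2105). With WT 2 and HEB-KO 1, the arrays lowest in this control, both left out, it was -5.00 (adjusted p = 0.1139), an alternative added after seeing the data.

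Of the 7 receptors, Ccr9 alone passed the gene-level test in E2A-KO against WT, and the other 6 did not. Among all 11957 genes tested, 0.443% passed in this comparison (0.393% fell and 0.0502% rose), and 13.4% had an unadjusted p under 0.05, as did 3 of the 7 (Ccr9, Ccr7 and Itga4). In HEB-KO against WT, limma called 0 of 11957 genes (0%) and 0 of the 7, and 312 genes (2.61%) and 2 of the 7, Ccr9 and Itga4, had an unadjusted p under 0.05. In E2A-KO against HEB-KO, Ccr9 was the 1 receptor called, where 0.117% of genes passed (0.1% lower and 0.0167% higher). There 16.5% of genes and 2 of the 7, Ccr9 and Itga4, had an unadjusted p under 0.05. The median log2 difference of the 7 was -0.058 in E2A-KO and -0.031 in HEB-KO against WT, beside -0.053 and 0.086 over all genes. Both knockouts share the same 2 WT arrays.

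**Figure D2:**
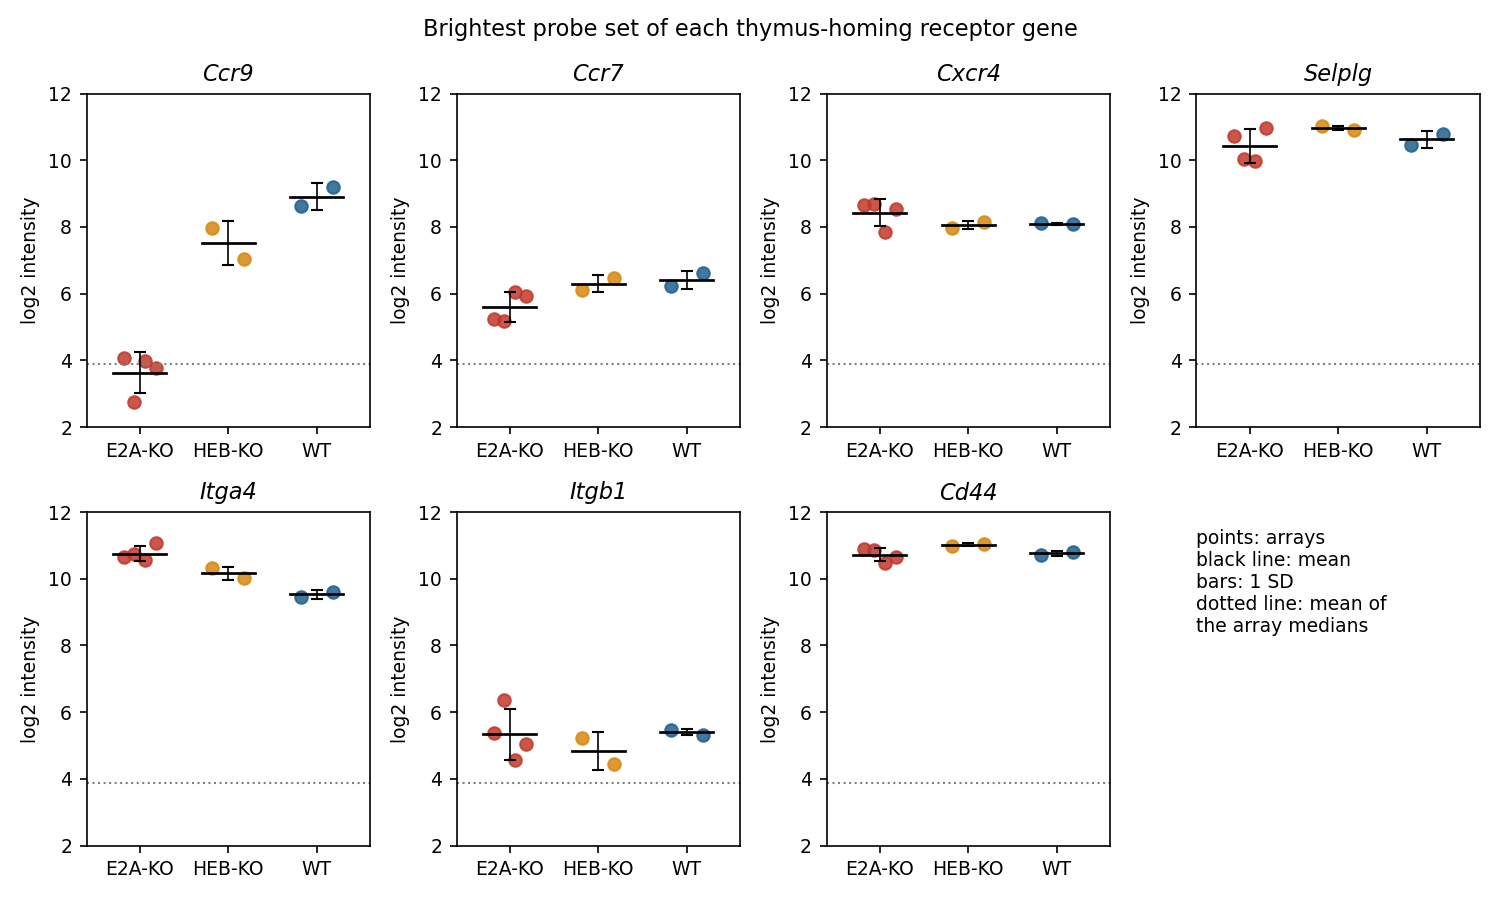
Log2 intensity (y axis) of the brightest probe set of each receptor gene in E2A-KO (n = 4), HEB-KO (n = 2) and WT (n = 2) arrays (x axis), with points for arrays, a black line and bar for the mean and 1 SD, and a dotted line for the mean of the array medians. Ccr9 spans 2.74 to 9.19 over the genotypes, while Selplg and Cd44 stay between 9.97 and 11.05 on all 8 arrays.

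Ccr7, the receptor for CCL19 and CCL21, has 1 probe set. It read 5.25, 5.19, 6.05 and 5.94 in E2A-KO, 6.11 and 6.48 in HEB-KO, and 6.22 and 6.61 in WT. All 4 E2A-KO arrays lay below the WT and HEB-KO arrays, by as little as 0.065 between E2A-KO 3 and HEB-KO 1. The log2 difference from WT was -0.81 in E2A-KO (SE 0.31, 95% interval -1.51 to -0.10, limma adjusted p = 0.3193) and -0.12 in HEB-KO (SE 0.36). E2A-KO against HEB-KO gave -0.69 (SE 0.31, limma adjusted p = 0.3115). None passed.

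Cxcr4, the CXCL12 receptor, also has 1 probe set and read 8.65, 8.69, 7.84 and 8.54 in E2A-KO, 7.97 and 8.15 in HEB-KO, and 8.11 and 8.08 in WT. Of the E2A-KO arrays 3 were above and 1 below both WT arrays, so the groups overlapped. The log2 difference was 0.34 in E2A-KO (95% interval -0.28 to 0.95) and -0.031 in HEB-KO (-0.74 to 0.68) against WT, and 0.37 in E2A-KO against HEB-KO. The intervals leave room for a rise of up to 1.94-fold in E2A-KO. Neither comparison passed the test.

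Selplg, which makes the selectin ligand, has 1 probe set. It read 10.74, 10.04, 9.97 and 10.97 in E2A-KO, 11.02 and 10.92 in HEB-KO, and 10.45 and 10.80 in WT. E2A-KO arrays lay on both sides of the WT arrays, and both HEB-KO arrays lay above them. The log2 difference was -0.20 in E2A-KO (95% interval -0.92 to 0.52) and 0.34 in HEB-KO (-0.49 to 1.18) against WT, and -0.54 in E2A-KO against HEB-KO (-1.26 to 0.18). None passed the test.

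Itga4, the alpha chain of VLA-4, was higher in E2A-KO at 3 of its 4 tested probe sets, and 1 of these passed the test. The brightest, 1436037_at, read 10.65, 10.73, 10.55 and 11.07 in E2A-KO, 10.31 and 10.03 in HEB-KO, and 9.44 and 9.62 in WT. The 3 genotypes did not overlap, with HEB-KO in the middle. At this probe set the difference from WT in E2A-KO was 1.22 (SE 0.22, 2.33-fold, 95% interval 0.71 to 1.73), with a limma adjusted p of 0.0652 over genes that just missed the threshold. The next, 1456498_at, read 9.92, 9.93, 9.75 and 10.00 in E2A-KO, 8.58 and 9.06 in HEB-KO, and 8.20 and 8.08 in WT. Here too the order was E2A-KO, HEB-KO, WT from high to low without overlap. It rose in E2A-KO by 1.76 against WT (SE 0.22, 3.39-fold, limma adjusted p = 0.0322 over all probe sets, where 0.0359% rose, 0.176% fell and 0.211% passed in either direction).

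The remaining Itga4 probe sets were dimmer. 1421194_at read 6.41, 6.60, 6.25 and 6.99 in E2A-KO, 5.89 and 5.82 in HEB-KO, and 5.54 and 5.50 in WT, again in the same order. Its difference from WT in E2A-KO was 1.05 (SE 0.25, limma adjusted p = 0.1734). 1450155_at did not follow, with a mean of 5.02 in E2A-KO, 4.08 in HEB-KO and 5.32 in WT, a difference of -0.30 (SE 0.46) in E2A-KO. 1427615_at was below the array median on all 8 arrays and was not tested. In HEB-KO against WT the 4 tested probe sets differed by 0.64, 0.68, 0.33 and -1.24 in the order given, none past the test. In E2A-KO against HEB-KO they differed by 0.58, 1.08, 0.71 and 0.94, also short of it.

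The Itga4 call was lost in most fits that left out an array. At 1456498_at the limma adjusted p was 0.0657 to 0.2535 with any 1 array left out other than E2A-KO 3, and the log2 difference stayed between 1.70 and 1.82. It was 1.58 with the hybridization control as covariate (limma adjusted p = 0.4770).

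**Figure D3:**
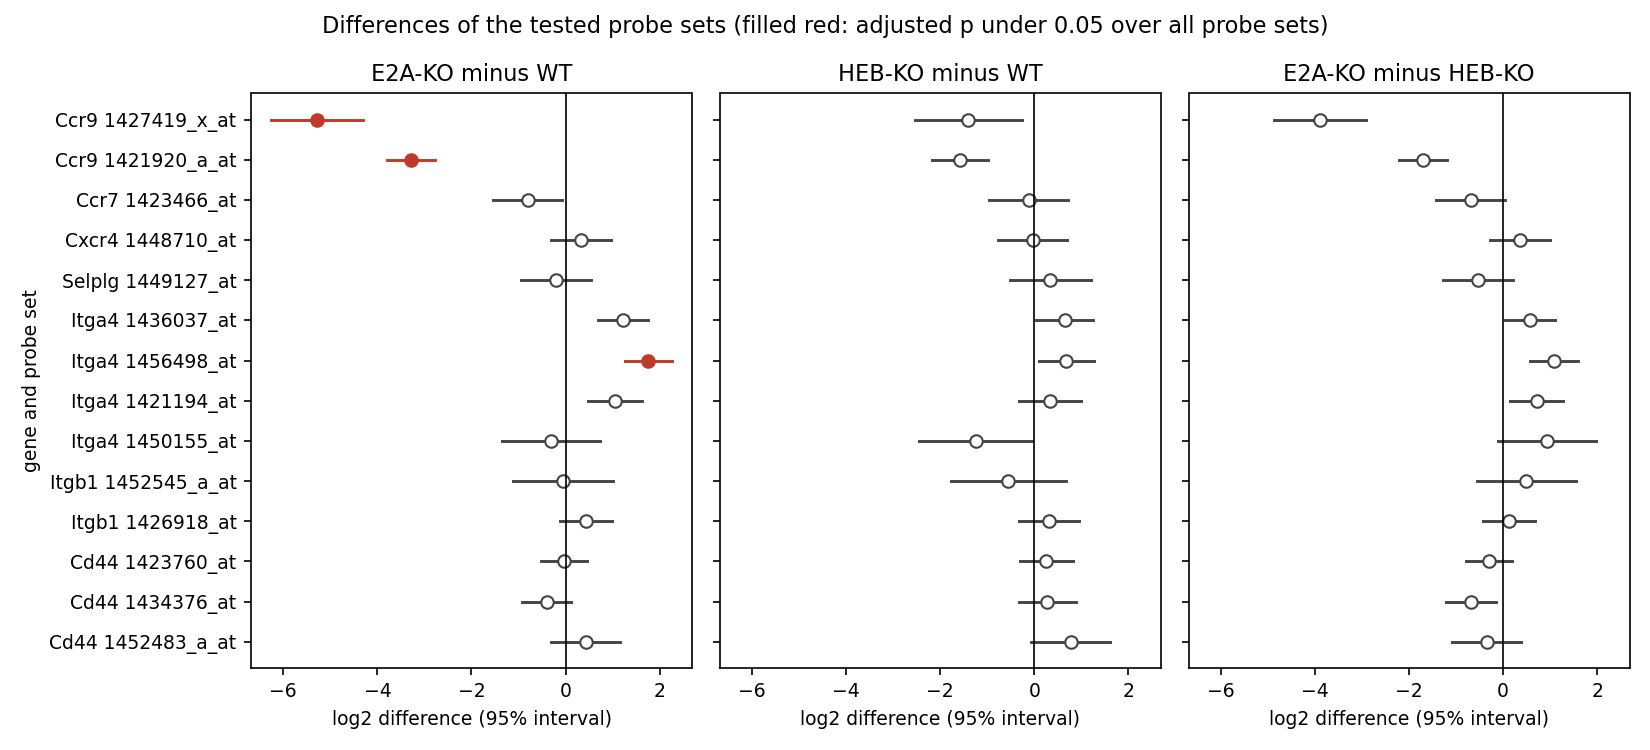
Log2 difference with its 95% interval (x axis) for the 14 tested probe sets of the 7 genes (y axis), in E2A-KO against WT, HEB-KO against WT and E2A-KO against HEB-KO. Both Ccr9 probe sets (-5.28 and -3.29, the second tested only because its HEB-KO and WT arrays are above the array median) and 1 Itga4 probe set (1.76) pass in E2A-KO against WT, and none passes in the other panels when adjusted over all probe sets.

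Itgb1, the beta chain that pairs with the Itga4 product, had 6 probe sets, of which 4 were below the array median throughout. The brightest, 1452545_a_at, read 5.38, 6.37, 4.57 and 5.04 in E2A-KO, 5.24 and 4.44 in HEB-KO, and 5.46 and 5.33 in WT. It varied more among the E2A-KO arrays (SD 0.76) than the genotypes differed. The log2 difference was -0.058 in E2A-KO (95% interval -1.09 to 0.97) and -0.56 in HEB-KO (-1.74 to 0.63) against WT. The other tested one, 1426918_at, read 4.97, 4.79, 5.02 and 5.44 in E2A-KO, 5.08 and 4.79 in HEB-KO, and 4.65 and 4.58 in WT. Its differences were 0.44 (SE 0.24) and 0.32 (SE 0.28), so the 2 probe sets disagreed in sign, and neither passed. Neither sign is settled by these values.

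Cd44, the hyaluronan receptor, did not pass the test in any comparison. Its brightest probe set, 1423760_at, read 10.89, 10.86, 10.48 and 10.65 in E2A-KO, 10.98 and 11.05 in HEB-KO, and 10.71 and 10.81 in WT. The log2 difference was -0.036 in E2A-KO (95% interval -0.50 to 0.43) and 0.26 in HEB-KO (-0.28 to 0.80) against WT, and -0.29 in E2A-KO against HEB-KO (-0.76 to 0.18). The probe sets 1434376_at and 1452483_a_at differed by -0.40 and 0.43 in E2A-KO and by 0.28 and 0.77 in HEB-KO against WT. 1443265_at was below the array median on all arrays. The probe sets 1434376_at and 1452483_a_at thus had opposite signs in E2A-KO.

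Arrays without overlap were common among all genes and carry little weight. In E2A-KO against WT 3 of the 7 receptors had such arrays, Ccr9 and Ccr7 lower and Itga4 higher, where 25.4% of genes did (15.4% lower and 9.98% higher). In HEB-KO against WT they were 5 of 7 (34.8% of genes, 11.4% lower and 23.4% higher), Ccr9 and Itgb1 lower and Selplg, Itga4 and Cd44 higher. In E2A-KO against HEB-KO they were 4 of 7 (29.4% of genes, 21.6% lower and 7.82% higher), Ccr9, Ccr7 and Cd44 lower and Itga4 higher.

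Other genes of progenitor trafficking gave 2 calls in E2A-KO against WT, of which that of Gpr174 is given as a description only. Both stood among 17 tested receptors of sphingosine 1-phosphate, egress or guidance. Among all 11957 genes 0.443% passed in this comparison (0.0502% rose and 0.393% fell). Nrp1, a co-receptor for semaphorins, read 6.84, 7.85, 7.50 and 7.74 in E2A-KO, against 4.46 and 5.01 in WT, and rose by 2.75 (SE 0.34, limma adjusted p = 0.0164). Gpr174, a receptor for lysophosphatidylserine, read 2.98, 2.68, 3.49 and 2.35 in E2A-KO, against 4.84 and 5.23 in WT, a difference of -2.16 (SE 0.31, limma adjusted p = 0.0305). Its E2A-KO arrays and its HEB-KO arrays, at 3.30 and 3.22, lay below the array median. Gpr174 thus passed the filter only through the WT arrays, where it was high, so its call is a description and not a test of a fall. The size of its difference is set in part by background. In HEB-KO against WT Nrp1 differed by 0.95 and Gpr174 by -1.77, neither past the test. In E2A-KO against WT the other 15 of the 17 did not pass. There 8 of the 17 had an unadjusted p under 0.05, as did 13.4% of all genes. In E2A-KO against HEB-KO 0 of the 17 passed with limma and 6 had an unadjusted p under 0.05, where 16.5% of all genes did. Among the 6 were Nrp1 (difference 1.79, limma adjusted p = 0.0893) and Ltb4r1, a leukotriene receptor (-1.20, limma adjusted p = 0.1842).

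Other chemokine receptors gave no call. Of 18 with a probe set, 8 (Ccr1, Ccr3, Ccr4, Ccr8, Cxcr5, Cxcr6, Xcr1 and Ackr3) lay at or below the median on all 8 arrays, and 10 were tested. With limma 0 of these 10 was called in any comparison. Ccr6 alone had an unadjusted p under 0.05 in E2A-KO against WT, where 13.4% of all genes did. Ccr6, a receptor of activated and memory lymphocytes, averaged 4.34 in E2A-KO and 3.39 in WT (difference 0.95, SE 0.37). All WT and HEB-KO arrays lay below the array median for Ccr6. It thus passed the filter only through E2A-KO arrays, where it was high, and its difference is given as a description and not as a test. Cx3cr1, the fractalkine receptor, averaged 4.52 in E2A-KO and 5.18 in WT (difference -0.66, SE 0.33). Ccr2, a monocyte chemokine receptor, averaged 5.55 in E2A-KO and 4.92 in HEB-KO (difference 0.62, SE 0.30), and Ackr2, a decoy receptor, 3.68 in HEB-KO and 3.92 in WT (difference -0.23, SE 0.27). Both HEB-KO arrays and WT 2 lay below the array median for Ackr2, so these readings may be background. The median log2 difference of the 10 was 0.11 in E2A-KO against WT, beside -0.053 over all genes. Ccl25, the CCR9 ligand made by thymic epithelium, averaged 3.82 in E2A-KO and 3.93 in WT, near the array median. Cxcl12 was at or below the median on all arrays.

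Genes that build selectin ligands and the other integrin chains gave no call with limma. Of 15 tested selectin and glycosylation genes, 0 had an unadjusted p under 0.05 in E2A-KO against WT, 1 in HEB-KO against WT and 3 in E2A-KO against HEB-KO. The shares over all genes were 13.4%, 2.61% and 16.5% in the same order. Fut7, the fucosyltransferase that finishes selectin ligands on PSGL-1, averaged 6.05 in E2A-KO and 6.54 in WT (difference -0.49, SE 0.22, limma adjusted p = 0.3858). Fut4, another fucosyltransferase, differed by -0.39 (SE 0.21). Tpst2, which sulphates tyrosines of PSGL-1, averaged 6.31 in E2A-KO and 6.99 in HEB-KO (difference -0.67, SE 0.28), and Tpst1, which does the same, 7.01 in HEB-KO and 6.43 in WT (difference 0.58, SE 0.42). C1galt1c1, a chaperone of O-glycan synthesis, averaged 6.82 in HEB-KO and 5.10 in WT, but its WT arrays read 3.90 and 6.29. Of 14 other integrin chains, 2 had an unadjusted p under 0.05 in E2A-KO against WT, both higher, where 13.4% of all genes did in either direction. Itgb7, which can also pair with the Itga4 product to bind MAdCAM-1, read 8.16, 8.10, 7.19 and 8.82 in E2A-KO, 7.67 and 6.93 in HEB-KO, and 6.82 and 7.11 in WT. All E2A-KO arrays were above the WT arrays, by as little as 0.074 (difference 1.10, SE 0.42, limma adjusted p = 0.3100). Itga6, a laminin receptor chain, differed by 0.77 (SE 0.27, limma adjusted p = 0.2795). Itgb5 averaged 7.06 in HEB-KO and 6.53 in WT (difference 0.53, SE 0.32), and Itgal, the alpha chain of LFA-1, 7.98 in E2A-KO and 8.41 in HEB-KO (difference -0.43, SE 0.23). Among 6 tested ligands of integrins and CD44, Icam1, which binds LFA-1, read 6.38, 6.53, 6.00 and 6.73 in E2A-KO, against 7.34 and 7.52 in WT (difference -1.02, SE 0.26, limma adjusted p = 0.1451). Lama5, a laminin chain, differed by 0.49 (SE 0.22), and Icam2, another LFA-1 ligand, by 0.25 (SE 0.32) in HEB-KO against WT.

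**Figure D4:**
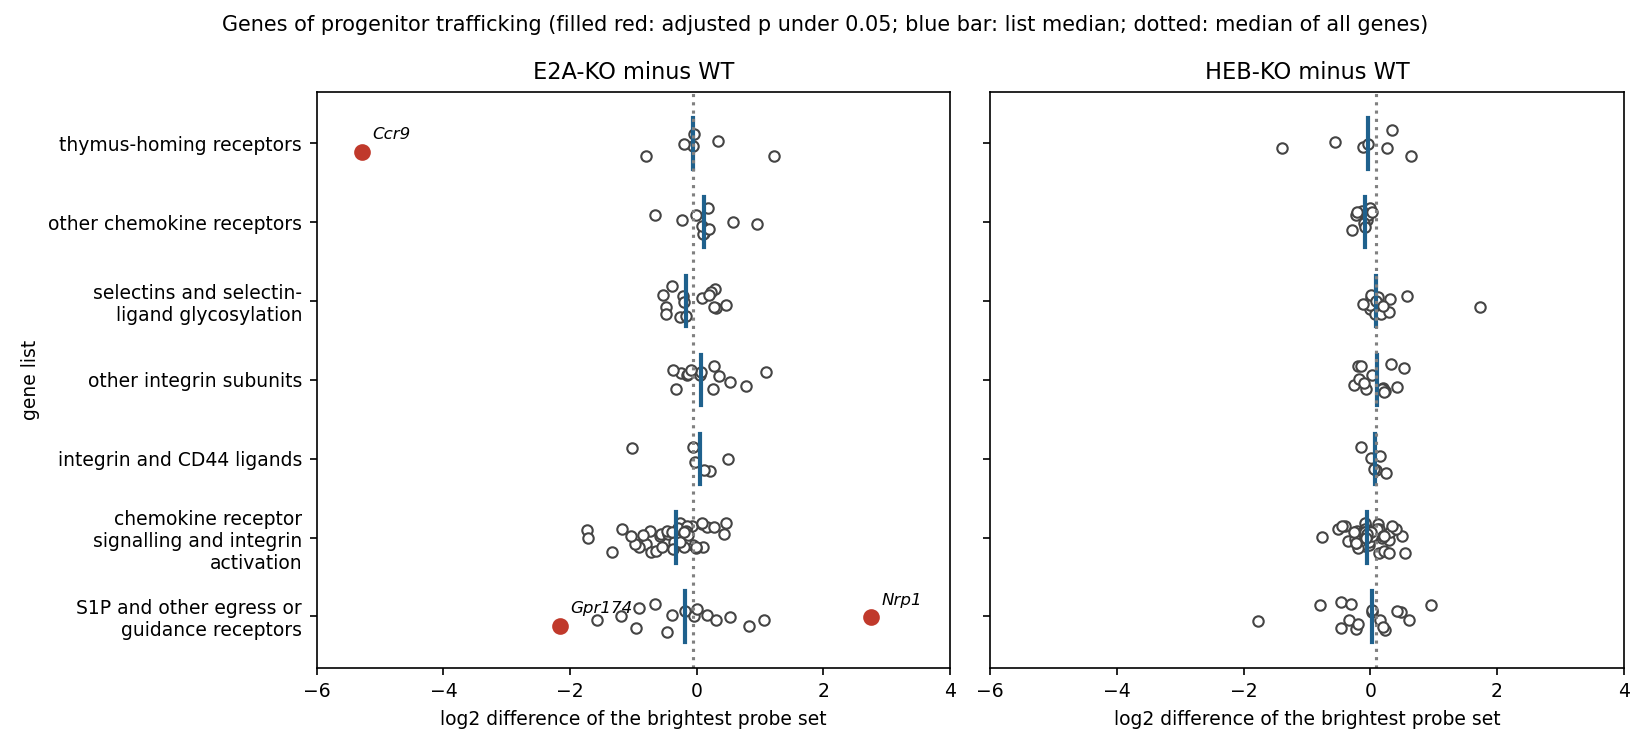
Log2 difference of the brightest probe set (x axis) for each tested gene of 7 lists (y axis), in E2A-KO against WT (left) and HEB-KO against WT (right), with a blue bar at each list's median and a dotted line at the median of all 11957 genes. Red points passed the test: Ccr9 and Gpr174 on the lower side and Nrp1 on the higher side in E2A-KO, and none in HEB-KO. Gpr174 was tested only because its WT arrays are above the array median.

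Signalling below chemokine receptors leaned to the lower side in E2A-KO without a single call. Of 42 tested genes, 35 had a negative log2 difference from WT (median -0.33), where 54.9% of all genes did (median -0.053). The listed genes with a probe set were bright, averaging 8.03 to 8.19 in log2 intensity in WT. The upper quartile of all probe sets read 5.78 to 5.97 in E2A-KO, 6.10 and 5.98 in HEB-KO, and 6.01 and 6.05 in WT. It was thus lowest on the E2A-KO arrays, and its part in this lean was not tested. With limma 0 of the 42 passed, and 8 had an unadjusted p under 0.05, all lower, where 13.4% of all genes did in either direction. Fyb, an adaptor that links receptors to integrins, read 6.42, 5.64, 5.77 and 7.03 in E2A-KO, against 8.14 and 7.76 in WT (difference -1.73, SE 0.38, limma adjusted p = 0.1032). Rgs10, which quenches G-protein signals, read 7.17, 6.32, 6.24 and 7.34 in E2A-KO, against 8.11 and 8.85 in WT (difference -1.72, SE 0.39, limma adjusted p = 0.1099). Rhoh, a GTPase of blood cells, averaged 5.48 in E2A-KO and 7.22 in HEB-KO (difference -1.74, SE 0.34, limma adjusted p = 0.0946). In HEB-KO against WT 24 of the 42 were negative, with a median of -0.048. Pik3r5, a subunit of PI3K gamma, averaged 5.16 in HEB-KO and 5.92 in WT (difference -0.76, SE 0.29), and Ptk2b, a kinase below integrins, 7.48 in HEB-KO and 6.98 in WT (difference 0.49, SE 0.28).

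The genes most like Ccr9, by Pearson correlation with its brightest probe set over the 8 arrays, were Sirt3 (0.991), Notch1 (0.990), Gimap8 (0.981), Xrcc6 (0.980), Etnk1 (0.980) and Cdk19 (0.979). The arrays fall into 3 genotypes, so these values describe mainly the order of the genotype levels. The sizes differed widely: Sirt3, a mitochondrial deacetylase, read 9.51 to 9.75 in E2A-KO, 10.31 and 10.16 in HEB-KO, and 10.39 and 10.43 in WT. Its difference from WT in E2A-KO was -0.77 (limma adjusted p = 0.1406). Cdk19, a Mediator kinase, fell by 1.95 in E2A-KO against WT (limma adjusted p = 0.0131) and was lower by 1.51 than in HEB-KO (adjusted p = 0.0372).

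Markers of the sorted cells and of other cells moved with some of these comparisons. Of 11 progenitor markers tested, all were lower on average in E2A-KO than in WT, where 54.9% of all genes were. Notch1, Cd93 and Il7r fell, with log2 differences of -2.09, -1.34 and -2.15, where 0.393% of all genes fell. The summed intensity of the 11 was 10139 to 13386 in E2A-KO, 21933 to 23193 in HEB-KO and 23255 to 25911 in WT. Dntt, at 12.16 to 12.97 in E2A-KO and 13.51 and 13.52 in WT, gave much of this sum. The part of these markers in the Ccr9 result was not tested. Plasmacytoid dendritic cells also carry CCR9, and of their 7 other markers 0 passed with limma in E2A-KO against WT. Cox6a2 alone had an unadjusted p under 0.05, as did 13.4% of all genes. Its mean was 7.01 in E2A-KO and 8.82 in WT, while Siglech averaged 5.72 in E2A-KO and 4.93 in WT. The summed intensity of the 7 was 1806 to 4867 in E2A-KO, 3591 to 5768 in HEB-KO and 3134 to 4494 in WT, with none at or below the median on all arrays. Their part in the Ccr9 result was not tested.

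Neutrophil and monocyte markers summed to 2584 to 4840 in E2A-KO, 4484 to 6593 in HEB-KO and 2875 to 3336 in WT over 9 genes, a sum to which Mpo gave much. In HEB-KO against WT the list median was 2.80, beside 0.086 over all genes. With limma 0 of the 9 passed there and 3 were higher at an unadjusted p under 0.05, where 2.61% of all genes had such a p. The granule genes Ltf (difference 2.87, SE 0.85), Camp (2.80, SE 1.06) and Ngp (3.58, SE 1.54) were these 3. Neutrophils carry CD44 and PSGL-1, and the part of these cells in the HEB-KO readings of Cd44 and Selplg was not tested. In E2A-KO against WT the monocyte genes Csf1r (-1.36, SE 0.32) and Lyz2 (-1.49, SE 0.35) had the smallest p of the list and did not pass.

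Single E2A-KO arrays stood apart in some of these markers. On E2A-KO 3 Ngp read 8.65 and S100a8 8.63, against 3.21 to 4.71 and 3.11 to 3.90 on the other E2A-KO arrays. On E2A-KO 1 the erythroid genes Car1 and Klf1 read 8.93 and 7.81, against 3.92 to 5.15 and 3.81 to 5.16 on the other E2A-KO arrays, and the erythroid and megakaryocyte list summed to 164 to 906 in E2A-KO and 163 to 191 in WT. Without E2A-KO 3 the Ccr9 difference from WT was -5.39 (limma adjusted p = 0.0063), and without E2A-KO 1 it was -5.42 (limma adjusted p = 0.0162).

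The stromal and endothelial list summed to 168 to 359 in E2A-KO, 698 to 819 in HEB-KO and 788 to 947 in WT over 8 genes, and Pdgfrb made up nearly all of the WT sum. Pdgfrb averaged 7.38 in E2A-KO, 9.40 in HEB-KO and 9.62 in WT (difference from WT in E2A-KO -2.24, SE 0.49, limma adjusted p = 0.1032). The other 2 tested genes, Col1a2 (0.49) and Kdr (0.45), had differences of the opposite sign. Col1a2 read 3.89 to 4.01 in E2A-KO, near the array median, and lay below it on all WT and HEB-KO arrays. It thus passed the filter only through E2A-KO arrays, and its difference is a description of readings that may be background. Col1a1, Col3a1, Lepr and Cxcl12 lay at or below the median on all arrays. Of 4 tested NK and innate lymphoid genes 0 passed, and Zbtb16 was above WT on every E2A-KO array (difference 1.53, SE 0.35, limma adjusted p = 0.1120). Their list summed to 190 to 577 in E2A-KO and 253 to 344 in WT. Thy1 (1.05, SE 0.41) in the T-lineage list and Ebf1 (-3.06, SE 0.75) in the B-lineage list also did not pass in E2A-KO against WT. Ebf1 read 2.32 to 3.06 in E2A-KO, below the array median, and 4.36 and 6.90 in WT. It passed the filter only through HEB-KO 1 and the WT arrays, so the size of its difference is set in part by background. The T-lineage list summed to 145 to 201 in E2A-KO and 135 to 151 in WT, with Cd3g and Cd8b1 at or below the median on all arrays, and the B-lineage list to 272 to 385 in E2A-KO and 238 to 1039 in WT.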

How the data were processed

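RNA of sorted progenitors was amplified with a second round of in vitro transcription and hybridized as biotin-labelled cRNA, per the labels' protocols. The deposited intensity values were made with RMA, per the submitters' processing notes, and neither the version nor the chip definition is stated. They ran on a linear scale, and their log2 was used without further normalization. Of 45101 probe sets, 34945 named 1 gene, 932 several, 9160 none and 64 were controls. Symbols came from the platform annotation, updated through RefSeq (GRCm38.p6).

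Each gene was its probe set with the highest mean. Genes or probe sets above the array median on at least 2 of the 8 arrays were tested, 11957 genes and 25063 probe sets. All 7 receptor genes and 14 of their 23 probe sets passed this filter. Ccr9 probe set 1421920_a_at passed it through its HEB-KO and WT arrays alone. limma 3.58.1 (R 4.3.3) fitted a mean per genotype over all 8 arrays, which leaves 5 residual degrees of freedom. The two-sided p-values were adjusted by Benjamini and Hochberg's method with a threshold of 0.05, and "rose", "fell" and "called" mean this. Intervals are 95%. The number of arrays limits precision, with a median SE of 0.280 for E2A-KO and 0.323 for HEB-KO against WT.

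The receptors, gene lists and alternatives were chosen with earlier results of these data known. From each list of pathway genes the called genes, up to 4, or the 2 with the smallest p were named in each comparison. Genes of the cell type marker lists, Ly6d and Cxcl12 were named after their values were seen. No arrays were identical. The labels do not say whether same-numbered arrays shared a sort, so the main fit did not pair them. Deviations from the genotype mean on same-numbered arrays correlated at -0.28 to 0.15. With 2 arrays in WT and in HEB-KO the deviations of a genotype mirror each other, so these values cannot decide whether sorts were shared. The fit was tested on simulated data in which each gene and array varied independently. Such data hold no effect shared by an array or a sort, so they cannot show how the fit behaves under one. Alternatives were other filters, scalings, probe set rules, priors, sample sets, a replicate block, the hybridization control level and leaving out each array. Replicate numbers 3 and 4 occur in E2A-KO alone. With a replicate block the E2A-KO differences therefore rest on E2A-KO 1 and 2, and not on all 4 arrays.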

Additional observations from a re-analysis of the deposited data

How the results depend on the processing

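The fall of Ccr9 in E2A-KO kept its direction in all 19 alternatives and its call in 15, with differences of -5.56 to -1.75 from WT, the smallest being the mean of all 5 probe sets. Leaving out 1 array at a time gave -5.56 to -4.98. The call was lost with the hybridization control as covariate (-4.78), without WT 2, with a crossed replicate block (-5.51) and without WT 2 and HEB-KO 1 (-5.00). Against HEB-KO the call was lost with the mean of probe sets (-1.08), the replicate block (-4.12), the covariate (-3.43), the crossed block (-4.12) and without WT 2 and HEB-KO 1 (-3.42), and ran from -4.35 to -3.42 with 1 array left out. Itga4 was called against WT with cyclic loess (1.34) and with a trended, robust prior (1.22).

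Counts of called genes rested on the setting. Against WT the 53 genes in E2A-KO became 91 with the trended prior, 26 with only the compared genotypes, 12 with the replicate block, 1 with the covariate, 8 with the crossed block, 0 without WT 2 and HEB-KO 1, and 2 to 98 with 1 array left out. The 53 probe sets became 7 with only the compared genotypes, 3 with the replicate block, 0 with the covariate, the crossed block or both arrays out, and 2 to 75 with 1 array left out. Against HEB-KO the 14 genes became 42, 6, 3, 1, 0 and 0 in the same order of settings, and 1 to 21 with 1 array left out. There the 1 probe set became 25 with the trended prior, 2 with only the compared genotypes, 0 with the replicate or the crossed block and 4 without both arrays, and 1 to 4 with 1 array left out. Receptors called in E2A-KO against WT numbered 2 with cyclic loess and with the trended prior, 0 with the covariate, the crossed block or both arrays out, and 0 to 1 with 1 array left out. Against HEB-KO they numbered 0 with the mean of probe sets, either block, the covariate or both arrays out, and 0 to 1 with 1 array left out. Cyclic loess moved the median of all genes by 0.13 in E2A-KO against HEB-KO and left 70% of its 10 calls lower, against 85.7% of 14.

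Signs turned for small differences. Against WT in E2A-KO, Selplg was 0.087 with the covariate. Itgb1 was 0.48 with either block, 0.57 with the covariate and -0.40 to 0.20 with 1 array left out. Cd44 was 0.077 with cyclic loess, 0.12 with either block, 0.13 with the covariate, 0.014 without both arrays and -0.092 to 0.044 with 1 array left out. In HEB-KO, Ccr7 was 0.26 without both arrays and -0.31 to 0.079 with 1 left out, and Cxcr4 was 0.011 with median centring, 0.043 without both arrays and -0.12 to 0.058 with 1 left out. Under either block the E2A-KO differences rest on E2A-KO 1 and 2 alone, since the other E2A-KO arrays have numbers of their own. For the other settings the cause was not tested. Itgb1 was not tested with the stricter filter or the mean of probe sets. The crossed block, which pairs WT 1 with HEB-KO 2, and the omission of both arrays were chosen after seeing the data.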

Other observations

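Within WT and HEB-KO the array with the higher Ly6d reading was also higher for Ccr9 and Rgs10, which were named after their values were seen. The share of all genes with this pattern was not counted. Ccr9 read 9.19 on WT 2, where Ly6d read 7.83, against 8.63 on WT 1, where it read 3.53, and 7.98 on HEB-KO 1 against 7.05 on HEB-KO 2. Rgs10 read 8.85 on WT 2 and 8.11 on WT 1, and 8.71 on HEB-KO 1 and 8.09 on HEB-KO 2. In E2A-KO, where Ly6d was higher on arrays 1 and 4, Rgs10 read 7.17 and 7.34 on these and 6.32 and 6.24 on arrays 2 and 3, while Ccr9 read 4.06 and 3.77 on arrays 1 and 4, and 2.74 and 3.97 on arrays 2 and 3. At their brightest probe sets Selplg and Itga4 were also higher on WT 2 and HEB-KO 1, while Ccr7, Cxcr4, Itgb1 and Cd44 were not higher on both. Selplg followed Ly6d in E2A-KO too, at 10.74 and 10.97 on arrays 1 and 4, and 10.04 and 9.97 on arrays 2 and 3. The pattern was thus not particular to Ccr9 and Rgs10. WT 2 and HEB-KO 1 were also the arrays lowest in the hybridization controls. These are values of single arrays and were not tested.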
